A study of Mus musculus with 6 samples.

Results

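The tumour necrosis factor (TNF) superfamily of signalling proteins and its receptors was followed in mouse colorectal tumours grown in white adipose or in non-adipose tissue. Genes were taken by symbol: those named Tnfsf or Tnfrsf with a number, and Tnf, Lta, Ltb, Ltbr, Fas, Ngfr, Cd40, Cd40lg, Cd27 and Cd70. This gave 39 genes, 14 ligands and 25 receptors, of 22180 genes with a value. Tnfsf12 and Tnfsf13 share a probe set and Tnfsf13os had none, so these 3 genes have no value here. Mouse colorectal cancer had been injected into white adipose tissue (3 tumours) or into non-adipose tissue (3 tumours), and the tumours were taken at 1 to 1.5 cm3. The sources used here do not name the cell line, the exact tissues injected, or the strain, sex and age of the mice. Each tumour was read on 1 Affymetrix array. The labels call the samples biological replicates. The p-values set the difference between the sites against the spread between these 3 tumours a site, as limma moderates it over all genes.

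TNF superfamily ligands are mostly trimeric membrane proteins, many of which can be released by proteases. Their receptors fall broadly into those with a death domain, which can start caspase activation, those that bind TRAF adaptors and switch on NF-kB and MAP kinases, and decoys that bind ligand without a full signal. In tumours, myeloid cells are a common source of TNF, T cells carry many of the costimulatory receptors, and tumour cells themselves often express Fas, the TRAIL receptor and the TWEAK receptor. In whole tumour RNA, fewer cells of a type and less RNA per cell cannot be told apart.

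The 250 bases before the gene start, from RefSeq on assembly GRCm38.p6, were matched by symbol for 30 of the 39 genes. Tnfrsf22, the only member under an unadjusted p of 0.05 in limma, was not among them. Windows are shown for 4 genes. Tnf and Ltb are neighbours in one ligand cluster on chromosome 17. The others are Tnfrsf1a, whose arrays separated by site, and Tnfrsf21, the member with the largest difference. Each runs 5′ to 3′ on the gene's own strand. Capitals mark a match to one of 4 patterns searched on both strands: a TATA box (TATAAA), an AP-1 site (TGANTCA), a STAT site (TTCNNNGAA) and an NF-kB site. The Tnf window is chr17:35202008-35202257 on the minus strand and the Ltb window is chr17:35194257-35194506 on the plus strand. The Tnfrsf1a window is chr6:125349473-125349722 and the Tnfrsf21 window is chr17:43016305-43016554, both on the plus strand.
Tnf: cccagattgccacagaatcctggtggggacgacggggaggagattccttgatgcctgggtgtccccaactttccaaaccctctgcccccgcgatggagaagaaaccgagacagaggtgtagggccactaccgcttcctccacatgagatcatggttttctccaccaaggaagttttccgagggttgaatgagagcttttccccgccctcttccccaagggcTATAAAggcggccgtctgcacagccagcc
Ltb: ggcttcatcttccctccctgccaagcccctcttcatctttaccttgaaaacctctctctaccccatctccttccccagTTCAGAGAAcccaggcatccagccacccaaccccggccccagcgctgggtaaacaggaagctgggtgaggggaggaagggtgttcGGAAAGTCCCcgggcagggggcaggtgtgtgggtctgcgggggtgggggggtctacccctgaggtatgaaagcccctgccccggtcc
Tnfrsf1a: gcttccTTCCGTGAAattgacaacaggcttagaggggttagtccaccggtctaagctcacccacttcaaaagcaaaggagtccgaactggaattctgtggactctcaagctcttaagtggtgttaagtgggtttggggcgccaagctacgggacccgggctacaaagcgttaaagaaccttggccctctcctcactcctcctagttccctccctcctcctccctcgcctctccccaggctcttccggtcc
Tnfrsf21: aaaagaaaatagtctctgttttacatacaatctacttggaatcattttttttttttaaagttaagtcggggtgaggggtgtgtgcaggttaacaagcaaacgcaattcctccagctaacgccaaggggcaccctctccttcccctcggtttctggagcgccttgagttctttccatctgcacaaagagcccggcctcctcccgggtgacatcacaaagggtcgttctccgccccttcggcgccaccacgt
Tnf holds a TATA box, Ltb an NF-kB and a STAT match, Tnfrsf1a a STAT match, and Tnfrsf21 none of the 4 patterns. Of the 30 genes with a window, a STAT match stood in 8 (26.7%, against 8.13% of 27025 genes), and an AP-1 match in 5 (16.7%, against 7.82%). An NF-kB match stood in 4 (13.3%, against 8.23%), in Ltb, Tnfrsf25, Tnfrsf8 and Tnfrsf9, and a TATA box in 6 (20.0%, against 14.3%). Genes with 2 windows were counted once. A match describes the letters and is not evidence of binding.

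No TNF superfamily gene passed an adjusted p of 0.05 between the sites with limma, and neither did any of the other genes tested (0% called; smallest adjusted p 0.936). At an unadjusted p under 0.05, 0 members were higher in white adipose tumours, where 1.66% of all genes were, and 1 member, Tnfrsf22, was lower, where 2.13% of all genes were. In 1 member, Tnfrsf1a, every white adipose tumour lay above every non-adipose tumour (3.34% of all genes), and in 2, Tnfrsf22 and Tnfrsf12a, every one lay below (3.97% of all genes). These shares are close to the background.

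The mean was higher in white adipose tumours for 16 members and lower for 23. Among ligands the split was 4 to 10, and among receptors 12 to 13. The median log2 difference, white adipose minus non-adipose, was -0.056 for ligands, -0.0024 for receptors and -0.0004 for all genes. Differences ran from -0.33 for Tnfrsf23 to 0.56 for Tnfrsf21, and exceeded 0.25 in size in 3 members: those 2 and Tnf. The 95% confidence interval lay within 1 log2 unit of 0 for 36 of 39 members and within 0.5 for 22. Differences inside those intervals were not resolved with 3 tumours a site.

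**Figure D1:**
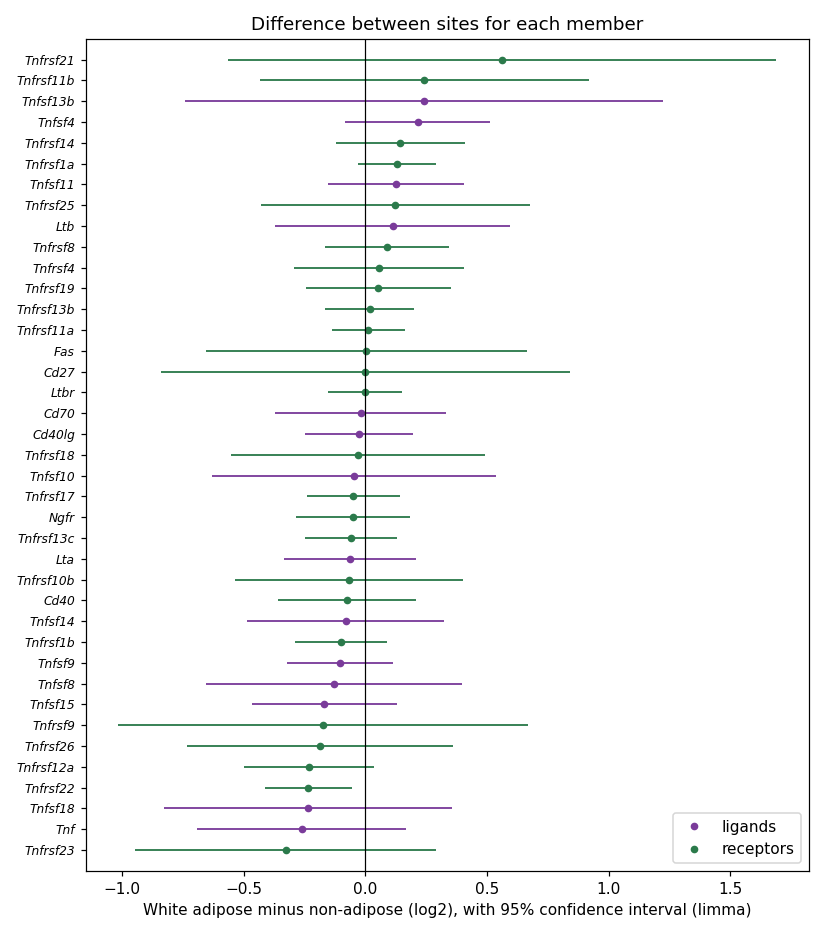
Log2 difference between white adipose and non-adipose tumours (x axis) for each of the 39 members, ordered by size, with the 95% confidence interval from limma as a line. Ligands and receptors have different colours. Only the interval of Tnfrsf22 leaves out 0, at -0.41 to -0.055, and the widest is that of Tnfrsf21.

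Signal strength was described against the 1088 olfactory receptor genes of the array, which most tissues do not express. The 95th percentile of their mean signal was 5.44 (log2), a level chosen after the data were seen, and 30 of the 39 members had a mean above it. The 9 that did not were Cd40lg, Cd70, Tnfsf4, Tnfsf11, Tnfsf14, Tnfsf18, Cd27, Tnfrsf13b and Tnfrsf17. Their differences between the sites rest on weak signal. In 10 of the 39 members (25.6%, against 35.3% of all genes), 2 or more arrays shared a value.

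**Figure D2:**
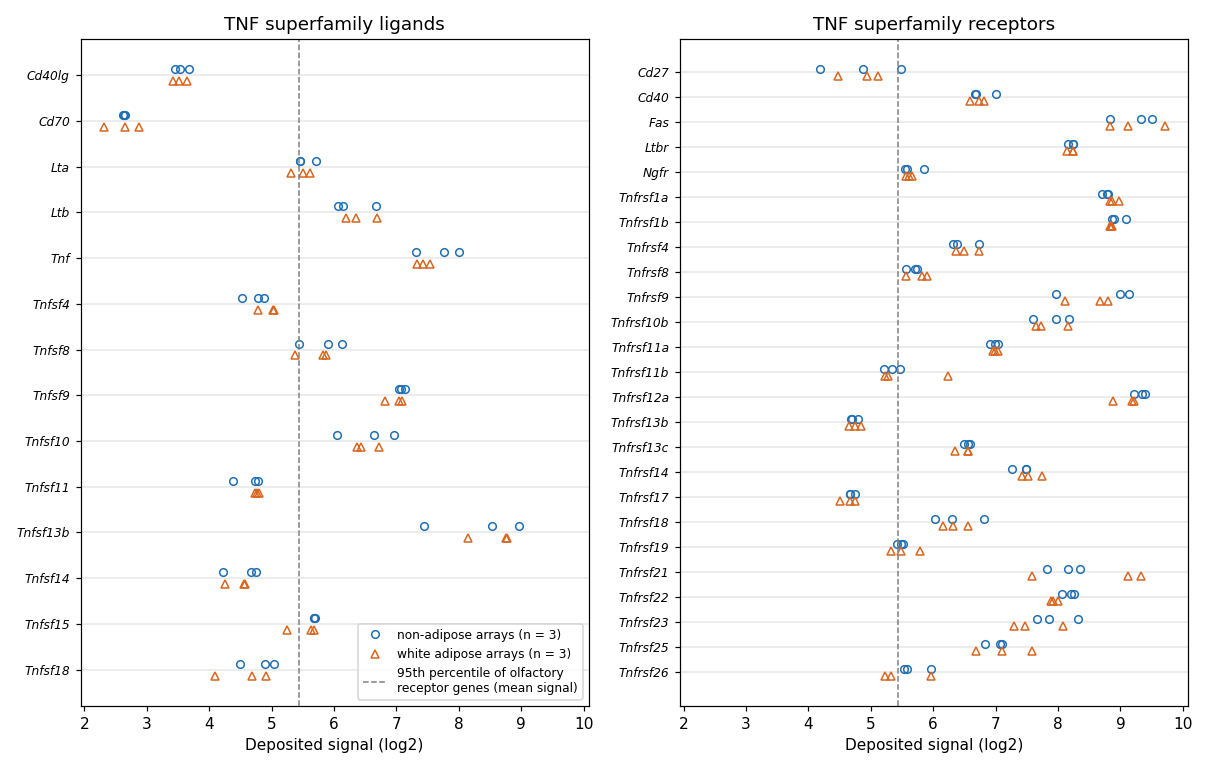
Deposited log2 signal (x axis) of every ligand (left) and receptor (right) in the 3 non-adipose (circles) and 3 white adipose arrays (triangles). The dashed line marks 5.44, the olfactory receptor level. Of the 14 ligands 8 have a mean above it, and of the 25 receptors 22.

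TNF, the founding ligand and a driver of inflammation, was read at 8.002, 7.32 and 7.76 (log2) in the non-adipose tumours and at 7.42, 7.34 and 7.53 in the white adipose tumours. The second non-adipose tumour was the lowest of the 6, just under the white adipose values, while the other non-adipose tumours were the highest. The difference was -0.26 (SE 0.18), with an interval of -0.69 to 0.17. Without that second tumour it was -0.45, with an adjusted p of 0.967 in limma.

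Tnfrsf1a, the death-domain receptor through which TNF acts on most cells, was read at 8.80, 8.78 and 8.71 in the non-adipose tumours. In the white adipose tumours it was 8.84, 8.98 and 8.86, all above. The gap is narrow, with a difference of 0.13 (SE 0.066) and an interval of -0.029 to 0.29. Tnfrsf1b, the TRAF-binding TNF receptor of immune cells, was read at 8.90, 8.86 and 9.09 in non-adipose and at 8.87, 8.83 and 8.85 in white adipose tumours. Its groups overlap, with a difference of -0.10 (SE 0.078). The Tnf and Tnfrsf1a differences thus had opposite signs, and neither passed the test.

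The lymphotoxins Lta and Ltb, which shape lymphoid tissue, lie beside Tnf on chromosome 17. Lta differed by -0.064 and Ltb by 0.11. Ltbr, a receptor of Ltb, was nearly level across the tumours, with a range of 0.10 over all 6 and a difference of -0.0024 (SE 0.063). Tnfsf14, known as LIGHT, a ligand of Ltbr and Tnfrsf14, differed by -0.081 on weak signal. Tnfrsf14 was read at 7.49, 7.27 and 7.49 in non-adipose and at 7.42, 7.74 and 7.52 in white adipose tumours, a difference of 0.14 (SE 0.11) with overlapping groups.

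Among the death receptors, Tnfrsf21 (DR6) varied most. It was read at 7.83, 8.36 and 8.17 in the non-adipose tumours, and at 7.59, 9.32 and 9.12 in the white adipose tumours. White adipose replicates 2 and 3 were the highest of the 6 and replicate 1 was the lowest. The difference was 0.56 (SE 0.46) with all arrays. Without white adipose replicate 1 it was 1.10 (SE 0.18), with an adjusted p of 0.49 in limma. The within-site spread of Tnfrsf21 lay at percentile 99.0 of all genes.

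White adipose replicate 1 also carried the highest skin epithelial signal. Over 8 skin markers measured of 9, its mean was 8.44 (log2), against 5.06 to 5.20 in the other white adipose tumours and 5.10 to 5.83 in the non-adipose tumours. Krt10, a keratin of differentiating epidermis, was 11.6 there and 5.90 to 6.16 in the others. Krt14, another skin marker, was 8.54 there, 7.23 in non-adipose replicate 3 and 4.91 to 5.28 in the others. The part of the skin signal in the Tnfrsf21 values was not tested.

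Fas, the receptor of Fas ligand, was read at 9.50, 8.83 and 9.32 in the non-adipose tumours and at 9.71, 8.83 and 9.12 in the white adipose tumours. It was described by array after its values were seen. The second tumour of each site was the lowest, the groups overlap, and the difference was 0.005 (SE 0.27). Tnfsf10 (TRAIL), a ligand that can kill tumour cells, differed by -0.048, and its death receptor Tnfrsf10b by -0.067. Tnfrsf25 (DR3) differed by 0.12 with a range of 0.90 over the 6 arrays. Its ligand Tnfsf15 was read at 5.70, 5.68 and 5.68 in the non-adipose tumours and at 5.24, 5.68 and 5.63 in the white adipose tumours. The first white adipose tumour was the low one, under the olfactory receptor level of 5.44, and the difference was -0.17 (SE 0.12). The 6 arrays held only 4 distinct values of Tnfsf15.

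Tnfrsf26, Tnfrsf22 and Tnfrsf23 are neighbours on chromosome 7 (GRCm38.p6), at chr7:143607685-143627845, chr7:143634808-143649675 and chr7:143665807-143686436. Tnfrsf22 and Tnfrsf23 are decoy receptors for TRAIL in the mouse. The 3 genes are close copies, so probes of one may read another and the values are less certain. Tnfrsf22 was read at 8.25, 8.20 and 8.06 in the non-adipose tumours and at 7.996, 7.89 and 7.92 in the white adipose tumours. All 3 white adipose values lie below all 3 non-adipose values. The difference was -0.23 (SE 0.073), or 1.18-fold lower, with an unadjusted p of 0.0186 and an adjusted p of 0.936 in limma. With 1 array left out it ranged from -0.29 to -0.19, and the unadjusted limma p lay between 0.0526 and 0.058 when non-adipose replicate 1 or 2, or replicate 2 or 3 from white adipose, was left out.

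Tnfrsf23 was read at 8.31, 7.66 and 7.86 in the non-adipose tumours and at 8.08, 7.29 and 7.47 in the white adipose tumours. Replicate 1 was the highest at both sites, and the difference was -0.33 (SE 0.25). Tnfrsf26 was read at 5.97, 5.59 and 5.52, and then at 5.97, 5.32 and 5.23, with a difference of -0.19 (SE 0.22). It was described by array after its values were seen. Without white adipose replicate 1, the array with the highest skin signal, the differences were -0.56 for Tnfrsf23 and -0.42 for Tnfrsf26. The unadjusted p of each then fell under 0.05 with an adjusted p of 0.608 in limma. The Tnfrsf26 values left in white adipose tumours, 5.32 and 5.23, lie under the olfactory receptor level of 5.44. The part of the skin signal in these values was not tested.

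Tnfrsf12a (Fn14), the receptor of TWEAK and an early response gene in epithelial and tumour cells, was read at 9.40, 9.35 and 9.21 in the non-adipose tumours. It was 9.21, 8.88 and 9.18 in the white adipose tumours. The groups barely separate, since non-adipose replicate 3 and white adipose replicate 1 are equal to 2 decimals, and the difference was -0.23 (SE 0.11). Its ligand Tnfsf12 has no value here.

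**Figure D3:**
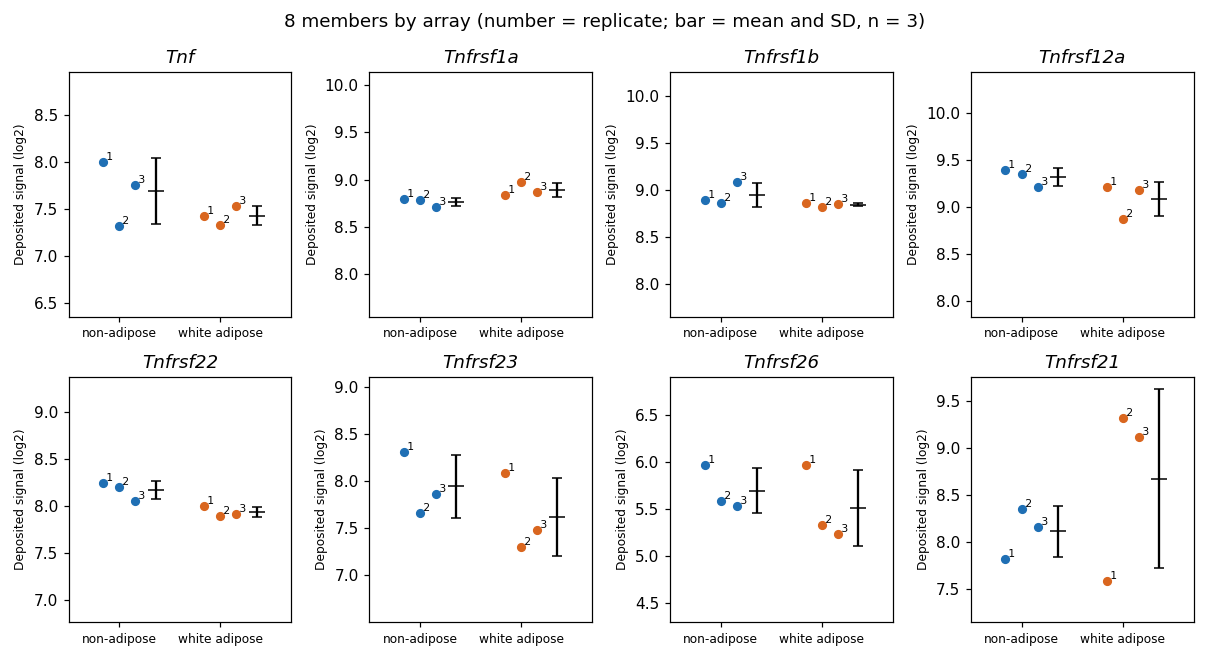
Deposited log2 signal (y axis) of 8 members in each tumour, with the replicate number beside each point and the mean and SD (n = 3) as a bar. Every panel spans the same range of signal. Tnfrsf22 separates by site with a narrow gap, and Tnfrsf21 is high in white adipose replicates 2 and 3 (9.32 and 9.12) and low in replicate 1 (7.59).

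Several members are costimulatory pairs of T cells. Tnfrsf9 (4-1BB), a receptor induced on activated T cells, was read at 9.13, 7.97 and 8.99 in the non-adipose tumours and at 8.80, 8.11 and 8.67 in the white adipose tumours. It was described by array after its values were seen. The second tumour of each site was the lowest, the groups overlap, and the difference was -0.17 (SE 0.35). Without non-adipose replicate 2 it was -0.54. Its ligand Tnfsf9 was read at 7.07, 7.04 and 7.14, and then at 7.09, 6.81 and 7.04, with a difference of -0.10 (SE 0.089) and overlapping groups.

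Tnfsf4 (OX40 ligand), made by antigen-presenting cells, was read at 4.79, 4.52 and 4.88 in the non-adipose tumours and at 4.78, 5.04 and 5.02 in the white adipose tumours. White adipose replicates 2 and 3 were the highest, replicate 1 was not, and all values are weak signal. The difference was 0.22 (SE 0.12), and that of its receptor Tnfrsf4 was 0.057 (SE 0.14). Tnfrsf18 (GITR), abundant on regulatory T cells, differed by -0.029, and its ligand Tnfsf18 by -0.24 on weak signal. Tnfrsf8 (CD30) differed by 0.089 and its ligand Tnfsf8 by -0.13. Cd27 ran from 4.18 to 5.49 within the non-adipose tumours alone, so its difference of 0.0005 (SE 0.35) is uninformative, and its ligand Cd70 differed by -0.018. Cd40, which licenses antigen-presenting cells, differed by -0.075 and its T cell ligand Cd40lg by -0.026.

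The mean of 10 T cell markers measured of 11 was 5.91, 5.61 and 6.72 in the non-adipose tumours and 6.12, 6.42 and 6.35 in the white adipose tumours. Of these 10, 9 had a higher mean in white adipose tumours and 0 passed an unadjusted p of 0.05 in limma. Their part in the receptor values was not tested.

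Tnfsf13b (BAFF), a survival factor for B cells made largely by myeloid cells, was read at 8.53, 7.45 and 8.97 in the non-adipose tumours and at 8.15, 8.77 and 8.76 in the white adipose tumours. It was described by array after its values were seen. Non-adipose replicate 2 stands below all others, and the difference of 0.24 (SE 0.40) became -0.19 without it. The receptors of BAFF on B cells and plasma cells differed by -0.057 for Tnfrsf13c, 0.018 for Tnfrsf13b and -0.048 for Tnfrsf17. Of 9 B cell markers measured, 1, Bank1, had a mean above the olfactory receptor level.

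Tnfsf11 (RANKL), the osteoclast factor, was read at 4.73, 4.39 and 4.79 in the non-adipose tumours and at 4.77, 4.73 and 4.79 in the white adipose tumours. Non-adipose replicate 2 was low, the signal is weak, and the difference was 0.13 (SE 0.11). Its receptor Tnfrsf11a differed by 0.012 over a range of 0.12. Tnfrsf11b (osteoprotegerin), the soluble decoy of RANKL, was 6.24 in white adipose replicate 1, the array with the highest skin signal. In all others it was weak, between 5.21 and 5.46, near or under the olfactory receptor level of 5.44. It too was described by array after its values were seen. Its difference was 0.24 (SE 0.28) with white adipose replicate 1 and -0.088 without it. The part of the skin signal in its values was not tested. The neurotrophin receptor Ngfr differed by -0.049 and Tnfrsf19 (TROY), a receptor of epithelial and neural progenitors, by 0.054.

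For many members the extreme values sat in the same tumours. The lowest value of the 6 arrays fell in non-adipose replicate 2 for 13 of 39 members (33.3%, against 14.6% of all genes) and in white adipose replicate 1 for 13 (33.3%, against 21.3%). For ligands the counts were 7 and 6 of 14. The mean over the 14 ligands was 5.65, 5.31 and 5.73 in the non-adipose tumours and 5.37, 5.56 and 5.67 in the white adipose tumours. Over the 25 receptors it was 7.02, 6.93 and 7.05, and then 6.99, 7.01 and 6.98. The median within-site SD was 0.169 for members and 0.125 for all genes.

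**Figure D4:**
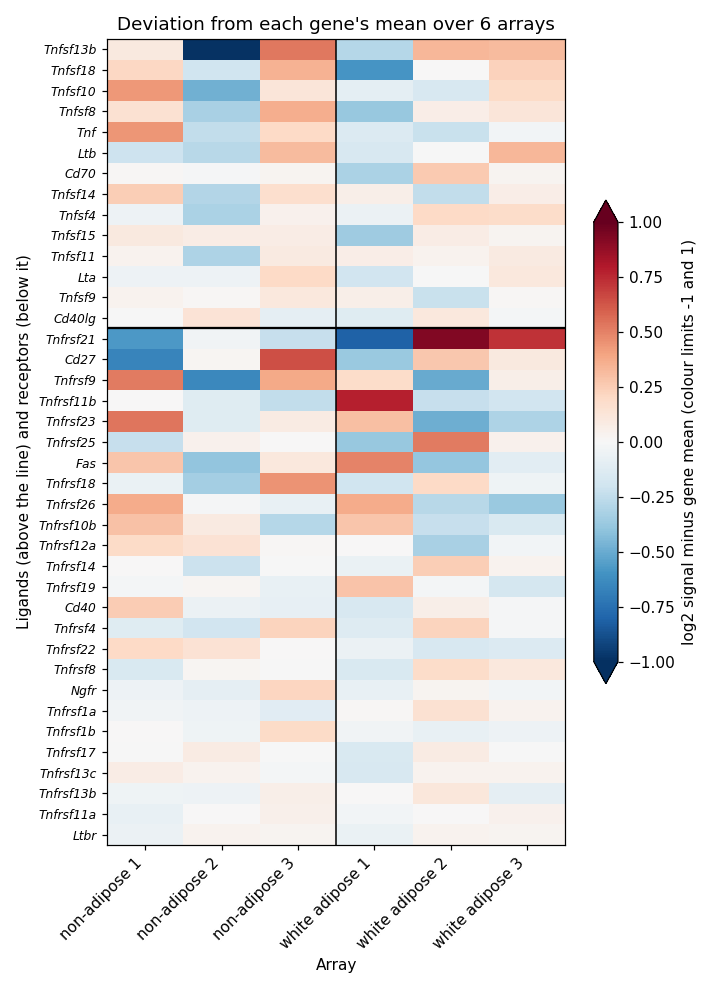
Each member's log2 signal minus its own mean over the 6 arrays, as colour, for ligands (above the line) and receptors (below it), with arrays in columns. Colours saturate at -1 and 1. Non-adipose replicate 2 and white adipose replicate 1 each hold the lowest value for 13 members.

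Marker means of some other cells, but not all, were lowest in the same 2 arrays. The fibroblast and stromal mean was highest in white adipose replicate 1 (9.85), and the endothelial mean was lowest in non-adipose replicate 1 (6.95). The mean of 11 macrophage and monocyte markers was 9.001, 8.84 and 9.02 in the non-adipose tumours and 8.72, 8.93 and 8.91 in the white adipose tumours, lowest in the same 2 tumours as the ligands. The mean of 8 neutrophil markers was 5.52, 4.74 and 5.39, and then 4.73, 5.04 and 5.01, again lowest in those 2. Of the 11 macrophage markers, 4 were lowest in non-adipose replicate 2 and 5 in white adipose replicate 1 (14.6% and 21.3% of all genes were). Ly6c2 was 7.27 in non-adipose replicate 2 and 7.82 to 8.51 in the others, while Mrc1 was highest there, at 9.11. The low macrophage mean in non-adipose replicate 2 thus leaned on Ly6c2. All 11 macrophage markers and 3 of the 8 neutrophil markers were above the olfactory receptor level. Their part in the ligand values was not tested.

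The label of a colorectal tumour was checked against 9 epithelial markers. Krt8, Krt18, Krt19 and Cdh1 were above the olfactory receptor level, and Epcam, Krt20, Vil1, Cdx2 and Lgr5 were not. Cdh1 was highest, at 7.95, in white adipose replicate 1, the array with the highest skin signal. With 5 of the 9 markers not above the level, the check did not settle the label. Of 8 adipocyte markers measured, 5 were above it, and Adipoq, Lep and Cidec were not. The mean of these 8 was 5.495 to 5.53 in non-adipose and 5.31 to 5.83 in white adipose tumours.

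Genes outside the symbol rule were taken from 3 lists. Of 7 other TNF superfamily genes measured of 8, 1 was higher and 0 lower at an unadjusted p under 0.05 in limma. Of all genes, 1.66% were higher and 2.13% lower at that p. The higher gene was Rell1, a RELT family member, by 0.27 (SE 0.086, adjusted p 0.936 in limma). Eda differed by 0.15 and Edar, the receptor for ectodysplasin, by 0.12, both on weak signal, and Relt by -0.055.

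Among 42 of 49 genes that carry the signal from the receptors, 29 had a lower mean in white adipose tumours, and 3 were lower and 0 higher at an unadjusted p under 0.05 in limma (2.13% and 1.66% of all genes). Their median difference was -0.062, against -0.0004 for all genes. Nfkbia, the inhibitor that holds NF-kB in the cytoplasm, was read at 9.73, 9.18 and 9.51 in the non-adipose tumours and at 9.18, 8.80 and 8.94 in the white adipose tumours, a difference of -0.50 (SE 0.17). Tnfaip3 (A20), which switches the signal off, differed by -0.46 (SE 0.17), and Nfkb2, a subunit of the alternative pathway, by -0.28 (SE 0.088). Mlkl, the executor of necroptosis, differed by -0.32 (SE 0.14) and did not reach that p. The 3 genes are themselves known NF-kB targets and also stand in the next list. The count was 0 when non-adipose replicate 1, or replicate 2 or 3 from white adipose, was left out. In these fits 1.51%, 1.54% and 1.62% of all genes were lower.

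Of 36 NF-kB target genes, 26 had a lower mean in white adipose tumours, and 10 were lower and 0 higher at an unadjusted p under 0.05 in limma (2.13% and 1.66% of all genes). None had an adjusted p below 0.936. The median difference was -0.15, and in 7 genes every white adipose tumour lay below every non-adipose one (3.97% of all genes did). The 4 with the smallest limma p were Mmp3, Saa3, Cxcl10 and Ccl7. Mmp3, a matrix metalloproteinase, differed by -0.82 (SE 0.12) and Saa3, an acute-phase protein, by -0.76 (SE 0.11). Cxcl10, a T cell chemokine, differed by -0.81 (SE 0.22) and Ccl7, a monocyte chemokine, by -0.67 (SE 0.19). Of the 36 genes, 7 had a mean not above the olfactory receptor level. Mmp3 was among these 7, so its difference rests on weak signal. The count at an unadjusted limma p under 0.05 ranged from 5 to 11 with 1 array left out. The share of all genes lower at that p ranged from 1.51% to 4.42%. The count was 5 without white adipose replicate 2 or 3 (1.54% and 1.62% of all genes) and 6 without non-adipose replicate 1 (1.51%). The list mean was 7.64, 7.20 and 7.49 in the non-adipose tumours and 7.18, 7.21 and 7.31 in the white adipose tumours, so the second non-adipose tumour lay within the white adipose range. The mean of 9 skeletal muscle markers was 5.96, 5.03 and 6.55 in the non-adipose tumours and 5.23, 5.09 and 5.04 in the white adipose tumours. Of these 9, 7 had a lower mean in white adipose tumours, with a median difference of -0.62. At an unadjusted p under 0.05 in limma, 1 was lower (2.13% of all genes were), the muscle creatine kinase Ckm (-0.52, SE 0.18). Muscle and neutrophil markers were thus both high in non-adipose replicates 1 and 3, as the list was, and their part in the list's values was not tested. Several of these genes were known from earlier work on these arrays to be lower, so the list is not independent evidence of its direction.

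**Figure D5:**
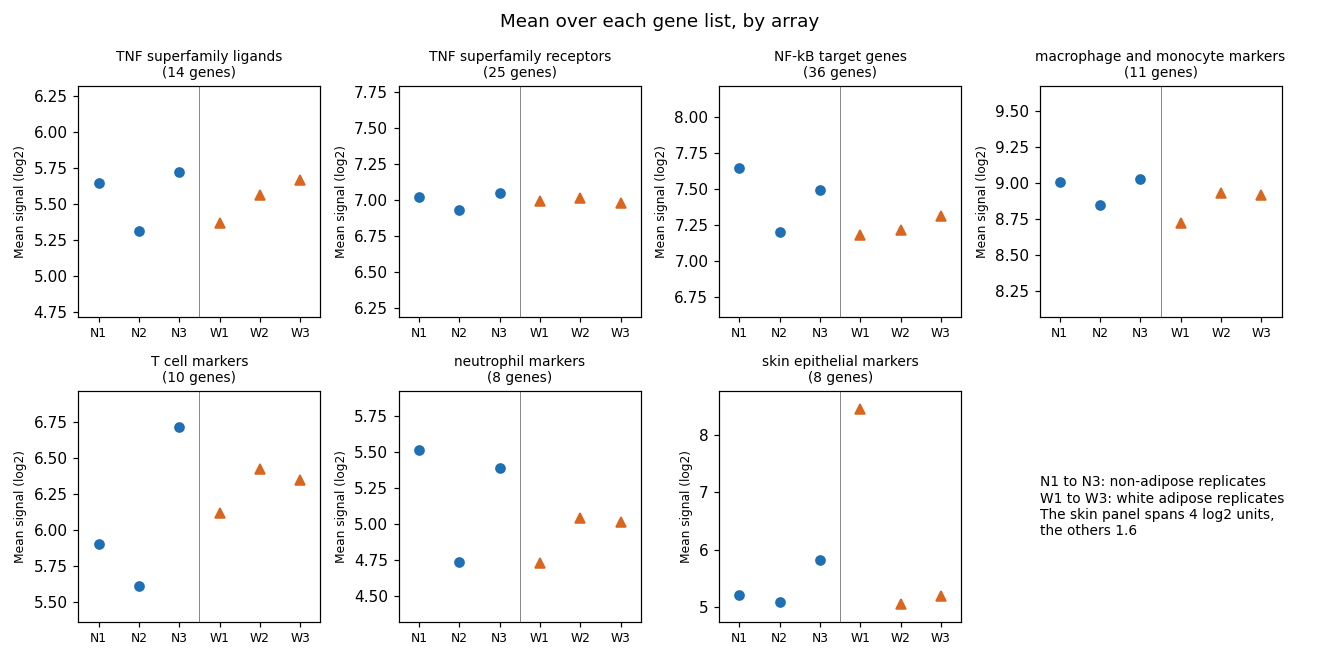
Mean log2 signal (y axis) over each list of genes in each array: N1 to N3 are non-adipose and W1 to W3 white adipose tumours. The ligand, macrophage and neutrophil means are lowest in N2 and W1, and the skin panel, drawn on a wider axis, shows W1 at 8.44.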

How the data were processed

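Each of the 6 tumours had its total RNA read on its own Affymetrix array. The deposited values are taken to be log2 signals, since they ran from 0.973 to 13.6 with array medians of 5.66 to 5.69. Values came from Affymetrix Expression Console, per the submitters' processing notes, and its version, background correction and normalization were not in the sources used here. A normalization that equalises arrays would remove a change shared by most genes. Of 41345 probe sets, 23521 had 1 gene symbol, 1814 several and 16010 none. Per gene, the 1-symbol probe set with the highest mean was kept, and each of the 39 members had only 1. Detection calls and scan dates were not used here. All 22180 genes entered 1 model (lmFit and eBayes of limma 3.58.1, run in R 4.3.3) on the deposited log2 values, with Benjamini-Hochberg adjustment over all genes and no covariate. The fit was run on simulated data with independent noise and no array unlike the others. That run does not show how the fit handles an array such as white adipose replicate 1. Values in every array are given for the 12 members with the smallest p and for Tnf, Tnfrsf1a and Tnfrsf1b, with others so described named as chosen later, and up to 4 genes with the smallest p were named from each pathway list. Members and lists were chosen with earlier results of these data known. Only 3 arrays a site limit the precision. Alternatives covered normalization, a filter on dim genes, the variance model, array weights, a replicate block, probe set averaging and leaving out each array.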

Additional observations from a re-analysis of the deposited data

How the results depend on the processing

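Direction held for 15 members in every alternative that tested them and turned in at least 1 for 24. The variance model, the filter on dim genes, the replicate block and probe set averaging leave a member's difference unchanged. Direction could thus turn only with normalization, array weights or an array left out. The smallest adjusted p of a member was 0.49, for Tnfrsf21 without white adipose replicate 1, against 0.936 with all arrays. With 1 array left out in turn, the log2 differences ranged over -0.14 to 0.035 for Cd40, -0.54 to 0.045 for Tnfrsf9, -0.25 to 0.022 for Tnfsf14, -0.23 to 0.061 for Tnfrsf10b, -0.020 to 0.040 for Tnfrsf11a and -0.30 to 0.16 for Tnfsf10. They ranged over -0.33 to 0.32 for Cd27, -0.19 to 0.57 for Tnfsf13b, -0.025 to 0.30 for Ltb, -0.041 to 0.18 for Tnfrsf4, -0.086 to 0.034 for Cd40lg and -0.033 to 0.068 for Tnfrsf13b. The next ranges were -0.033 to 0.029 for Ltbr, -0.24 to 0.20 for Fas, -0.32 to 0.030 for Tnfsf8, -0.13 to 0.021 for Lta, -0.11 to 0.047 for Ngfr and -0.21 to 0.19 for Tnfrsf18. The others were -0.088 to 0.42 for Tnfrsf11b, -0.091 to 0.0091 for Tnfrsf13c, -0.10 to 0.015 for Tnfrsf17, -0.073 to 0.16 for Tnfrsf19, -0.15 to 0.13 for Cd70 and -0.11 to 0.34 for Tnfrsf25. The sign also turned for Lta (0.0011), Tnfrsf19 (-0.032), Cd40lg (0.0020), Tnfrsf18 (0.038), Cd70 (0.068), Ltbr (0.022) and Fas (-0.15) with array weights, for Tnfrsf13b (-0.0034), Tnfrsf11a (-0.0089), Fas (-0.016) and Cd27 (-0.021) with array medians subtracted, and for Ltbr (0.018) and Cd27 (-0.017) with quantile normalization. At an unadjusted p under 0.05, array weights gave 2 higher members (Tnfrsf21 and Tnfsf4) and 2 lower (Tnfrsf22 and Tnfrsf12a), where 3.28% and 4.03% of all genes were called, with white adipose replicate 1 at a weight of 0.435. Leaving out 1 array gave 0 to 1 higher and 0 to 3 lower, the most without white adipose replicate 1, where 3.69% of all genes were higher and 4.42% lower against 1.66% and 2.13% with all arrays. The ligand median ranged from -0.15 to 0.023 and the receptor median from -0.041 to 0.040. Same-numbered arrays deviated together only weakly (r 0.142, 0.064 and 0.0641), and non-adipose replicate 3 correlated best with white adipose replicate 2 (0.0864), so the numbers were not taken as pairs. The replicate block gave 2 lower members, Tnfrsf22 and Tnfrsf23, with 2.6% of all genes lower. The filter on dim genes left 22 members. Averaging probe sets changed no member. Subtracting array medians moved the median of all genes to -0.022 and the split of genes at an unadjusted p under 0.05 from 368 higher and 473 lower to 258 and 614. For the signalling and NF-kB target lists these alternatives were added after seeing the data, and the block gave 5 lower signalling genes against 3. Causes of these shifts were not tested.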
